A study of Rattus norvegicus with 8 samples.

Results

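The genes described here encode potassium, sodium, calcium, chloride and TRP (transient receptor potential) channels and their auxiliary subunits. They were taken from the array design by symbol: every probe, controls left out, whose gene symbol begins with Kcn, Scn and a digit, Cacn, Clcn, or Trpc, Trpv or Trpm and a digit. This gave 201 probes for 158 genes, out of 16185 genes that the array design names. Among them Trpc4ap encodes a protein that associates with a TRP channel and is not itself a channel, and the symbol Scn2a1 is an older name of Scn2a.

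RNA came from the established rat liver cell line BRL-3A and was hybridised to Agilent Whole Rat Genome arrays, 1 RNA sample per array. All cells were grown in serum-containing medium and harvested 48 h after transfection with lipofectamine. In 4 samples the siRNA targeted lnc19959.2, a long noncoding RNA (the siRNA arrays), and in the other 4 the transfection is labelled NC (the NC arrays). The study as a whole addressed long noncoding RNAs of the liver and triglyceride metabolism, and the comparison asked here is how channel transcripts differed between these groups. The labels do not state that the arrays of a group came from separate cultures, so each p-value reflects variation among these arrays alone, which could be technical.

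Ion channels let ions cross membranes down their electrochemical gradients. Potassium channels hold the resting potential negative, voltage-gated sodium and calcium channels depolarise excitable cells and admit calcium, CLC proteins carry chloride across the plasma membrane or exchange it for protons in endosomes and lysosomes, and TRP channels respond to stretch, temperature, lipids or store depletion. Liver cells are not excitable, and there such channels are known mainly for setting the membrane potential, for cell volume control, for bile secretion and for calcium signalling.

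The NC arrays had a 75th percentile of processed intensity between 246 and 261 and the siRNA arrays between 289 and 323. Array signals had Pearson correlations of 0.986 to 0.993 between arrays of the same group and 0.946 to 0.962 across groups. All NC arrays were read in 1 scan and all siRNA arrays in another, so a scan effect and a group effect cannot be told apart. The array has no probe for lnc19959.2 by name, and its knockdown was not checked. Of 10 hepatocyte markers, Alb, Serpina1, Tf and Ttr were above background on no array. The summed level of the list was 0.565 to 0.965 (as a multiple of the array's 75th percentile) on NC arrays and 4.69 to 6.47 on siRNA arrays. That rise was carried by Cyp2e1 (log2 difference 4.94 ± 0.30 SE). Hnf4a was also higher (0.84 ± 0.22), Fgb stood at -0.74 ± 0.42, and Asgr1, above background on no siRNA array, was at least 4.69-fold lower. Neuron markers Elavl3, Map2, Nefl, Snap25, Stmn2 and Syp were above background on no array, 6 of the 9 on the array. Nefm and Tubb3 were above background on every array, with Nefm higher (0.35 ± 0.10) and Tubb3 lower (-0.91 ± 0.21) in siRNA cells. The list's summed level was 1.41 to 1.73 on NC and 1.45 to 1.55 on siRNA arrays. Summed levels of other lists also differed between the groups. For endothelial markers (4 of 5 measured) they were 1.51 to 2.08 on NC and 3.08 to 4.23 on siRNA arrays. For cholangiocyte markers (2 of 4) they were 1.16 to 1.47 and 3.50 to 4.25, and for leukocyte markers (2 of 5) 6.47 to 7.34 and 5.29 to 6.34. For smooth muscle and stellate cell markers (7 of 8) they were 236 to 262 and 265 to 278. Single markers did not all move with the sum. Kdr (1.65 ± 0.19) and Cdh5 (0.79 ± 0.20) were higher, while Tek and Vwf were at least 2.92-fold and 8.15-fold lower. Krt7 rose (1.75 ± 0.11) and Sox9 fell (-1.01 ± 0.32), and 2 smooth muscle and stellate markers were higher and 1 lower. Asgr1, Tek, Vwf and Sox9 met the detection filter described below through the NC arrays alone, and Hnf4a and Cdh5 through the siRNA arrays alone. The direction of these markers follows from how they were kept. The part of these lists in the results on channels was not tested.

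Because the results turn on single 60-base probes, the probe sequences of examples of each pattern are shown here, 5′ to 3′ as printed on the array. Positions follow the array design, on the rat assembly rn4, and lower case is used throughout since no part of a probe is singled out. Kcna1 (chr4:163012003-163012062, minus strand) was above background only on siRNA arrays. Kcns2 (chr7:70279486-70279545, plus strand) and Kcne1 (chr11:32344803-32344862, minus strand) were above background only on NC arrays.
Kcna1: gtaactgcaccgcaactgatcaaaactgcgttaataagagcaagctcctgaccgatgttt
Kcns2: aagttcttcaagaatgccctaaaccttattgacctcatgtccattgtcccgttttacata
Kcne1: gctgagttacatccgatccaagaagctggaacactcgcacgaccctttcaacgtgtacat

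For Kcnd2 (chr4:48046384-48046443, plus strand) and Kcnh3 (chr7:138002227-138002286, plus strand), the first 30 of the 60 bases are given; these genes had the largest lower bounds of a fall. The same is given for Kcnj14 (chr1:96294062-96294121, minus strand), Kcnk7 (chr1:208330157-208330216, plus strand) and Scn11a (chr8:124724572-124724631, minus strand), which were above background on all 8 arrays and lower in siRNA cells under every setting tried.
Kcnd2: ccctgactatggaaagaatctaaaggagaa
Kcnh3: gtggacccaggaggagggcacaggagtctg
Kcnj14: gtttctagaatacacagaacattggtaggt
Kcnk7: gagccgtggtgaaattctttgggcccagta
Scn11a: gggtgttcctaccagcatcacagaattggg

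Channel transcripts were near or below the detection limit for most genes. A probe was counted as detected on an array where the scanner software marked it as well above background. Of the 201 channel probes, 55, 64, 65 and 55 were detected on NC arrays 1 to 4, and 52, 54, 44 and 45 on siRNA arrays 1 to 4. The mean share was 29.7% ± 2.74 (SD, n = 4) in NC and 24.3% ± 2.48 (SD, n = 4) in siRNA cells, and the ranges of 27.4% to 32.3% and 21.9% to 26.9% did not overlap. Over all 41012 probes the share was 61.1% ± 3.13 and 56.6% ± 1.65 (SD, n = 4 each), so that the difference was -5.47 percentage points for channel probes and -4.56 for all probes. For the 21102 probes of other named genes it was -2.85 points (67.9% and 65.1%). With the software's more lenient mark of a positive and significant signal, 59.7% of channel probes were detected in NC and 52.5% in siRNA cells, and 82.5% and 75.5% of all probes, differences of -7.21 and -7.08 points.

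**Figure D1:**
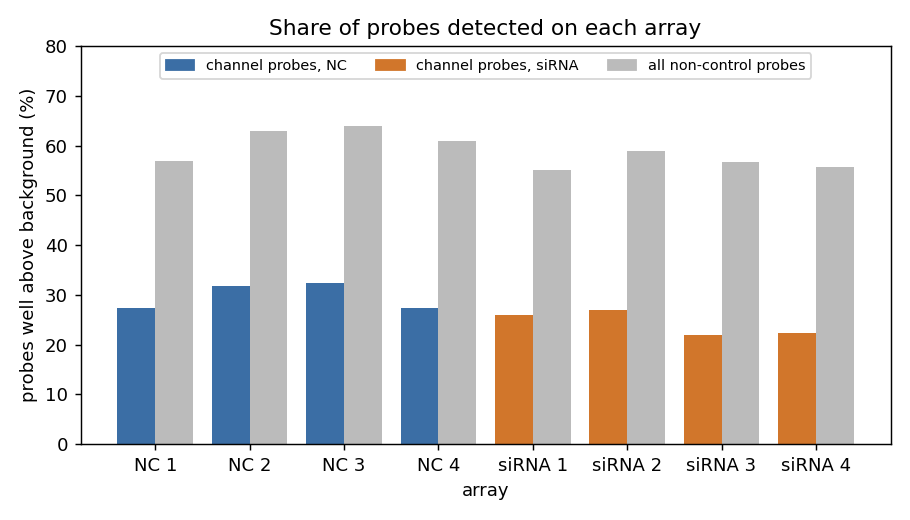
Share of probes (%) well above background on each of the 8 arrays, for the 201 channel probes (blue, NC; orange, siRNA) and for all 41012 non-control probes (grey). Channel probes lie between 21.9% and 32.3%, and the 4 NC bars are all higher than the 4 siRNA bars.

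By gene, taking the best of its probes, 70 of the 158 were detected on no array and 35 on 1 or 2 arrays of a group at most. Another 32 were detected on 3 or 4 arrays of both groups. The rest were unequal: 11 were detected on 3 or 4 NC arrays and no siRNA array, 2 on 3 or 4 siRNA arrays and no NC array, 4 on 3 or 4 NC arrays and 1 or 2 siRNA arrays, and 4 on 3 or 4 siRNA arrays and 1 or 2 NC arrays. The genes on no array included 14 voltage-gated potassium channels such as Kcna2, Kcna5 and Kcnq1, 8 inward rectifiers such as Kcnj3 and Kcnj11, 6 sodium channel alpha subunits such as Scn1a and Scn8a, and 11 TRP genes such as Trpv1 and Trpm8. All 4 Cacna2d genes, which encode the extracellular alpha-2-delta subunits of calcium channels, were also on no array. In bulk RNA, fewer cells of a type and less RNA per cell cannot be told apart.

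A gene was tested where at least 1 of its probes was well above background on 3 of the 4 arrays of at least 1 group, and was represented by its brightest such probe; 53 channel genes passed. A level is the log2 processed intensity minus the array's 75th percentile, a difference is siRNA minus NC on that log2 scale with its standard error (SE) over 4 arrays per group, and a gene is called at an adjusted p under 0.05 in the limma fit to all kept probes. Of the 53, 39 were called (73.6%, against 65.0% of all 10669 genes tested), 14 higher in siRNA cells (26.4%, against 36.1%) and 25 lower (47.2%, against 28.9%). At 2-fold or more, 4 were higher (7.55%, against 4.22%) and 18 lower (34.0%, against 8.81%). Counting the genes detected in 1 group alone by their lower bound, 4 were higher and 11 lower at 2-fold. All genes were not counted by this bound, so these counts cannot be set against the shares just given. At the level of probes, 43 of 58 were called (61.7% of all 24853 kept probes), 15 higher (29.7%) and 28 lower (31.9%). The median difference was -0.12 over the channel genes and 0.04 over all genes tested.

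Arrays of the groups did not overlap for 34 of the 53 channel genes (64.2%, against 62.5% of all genes tested), 22 with siRNA below NC (41.5%, against 27.6%) and 12 with siRNA above (22.6%, against 34.9%). Signal level moved with this split. In the lowest quartile of all tested genes by signal, 22.0% were higher and 41.9% lower, and that quartile held 37 of the 53 channel genes, 10 higher and 19 lower. Its part in the result was not tested further. Among genes whose probe was well above background on all 8 arrays, 29 channel genes were tested and 9 were higher (39.1% of all such genes) and 10 lower (26.1%).

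The split also depended on how arrays were scaled to each other. Median scaling gave 21 channel genes higher and 19 lower, where 60.1% and 15.3% of all genes tested were higher and lower. Quantile normalization gave 18 and 22 (36.0% and 28.4% of all genes) and cyclic loess 18 and 23 (33.8% and 30.7%). Scaling to spike-in RNA gave 26 and 16 (72.4% and 10.1%), and 10 and 10 at 2-fold (17.4% and 5.28%). The median over all probes, -0.03, became 0.28 when scaled by the median and 0.50 when scaled by spike-in RNA, and differences below are relative to the 75th percentile. Of the 39 calls, 30 were kept in the same direction under all 4 of these scalings, among them all 14 higher genes; those lost under at least 1 included Cacna1s, Cacnb1, Clcn5, Clcn6, Clcn7, Kcnj12, Kcnn4 and Kcns2. Normexp background correction of the mean spot signal, in place of the deposited processed signal, gave 1 higher and 7 lower (11.2% and 7.01% of all genes), and 0 and 5 at 2-fold (2.87% and 3.14%). It kept 8 calls (among them Kcnmb4 higher, and Kcnd2, Kcnh3, Kcnj14, Kcnk5, Kcnk7 and Scn11a lower), and with it the call of every other channel gene was lost. Without spots dimmer than their local background, normexp kept 36 calls.

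**Figure D2:**
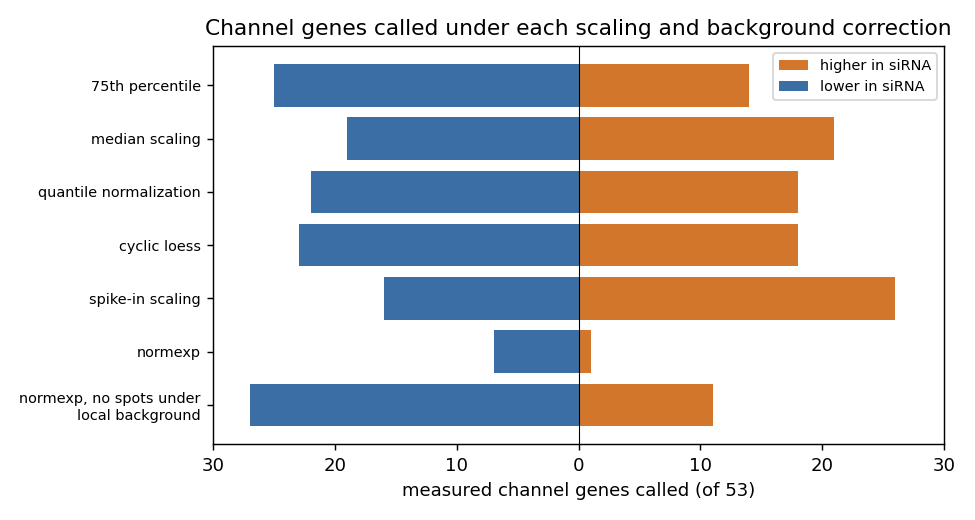
Number of the 53 measured channel genes called higher (right, orange) and lower (left, blue) in siRNA cells under each scaling of the arrays and each background correction. The 75th percentile gives 14 and 25, spike-in scaling 26 and 16, and normexp 1 and 7.

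Voltage-gated potassium channels open on depolarisation and repolarise the membrane. Of 37 such genes on the array 13 were measured, with 6 higher, 6 lower and a median difference of 0.26. Of all 10669 genes tested, 36.1% were higher and 28.9% lower, shares that also stand beside the class counts below. Among the lower ones, Kcnd2, Kcnh1, Kcnh3, Kcnh5 and Kcns2 passed the filter through the NC arrays alone, so their direction follows from how they were kept. Kcnd2, a pore subunit of A-type currents, read -2.08, -2.14, -2.31 and -2.38 on the NC arrays and -5.78, -5.19, -5.48 and -5.79 on the siRNA arrays. Every NC array and no siRNA array was above background, and the fall was at least 4.71-fold (group means -2.23 and -5.56, adjusted p = 2.10e-06, limma). Its close relative Kcnd1 went the other way, from -1.28, -1.43, -1.44 and -1.33 in NC to -1.20, -1.10, -1.12 and -1.02 in siRNA cells, a difference of 0.26 ± 0.06 (adjusted p = 0.00617). With normexp Kcnd1 stood at 0.05 and was not called.

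The ether-a-go-go family (Kcnh) shapes repolarisation in heart and brain. Kcnh3 read -2.79, -2.61, -2.45 and -2.76 in NC and -5.28, -5.93, -5.25 and -4.98 in siRNA cells, and was at least 3.50-fold lower (adjusted p = 2.12e-05). Kcnh5 and Kcnh1, likewise above background on all NC arrays and no siRNA array, were at least 1.84-fold (means -3.58 and -6.13, adjusted p = 0.000264) and 1.57-fold lower (means -3.81 and -5.77, adjusted p = 1.42e-05). Kcnh2, which carries the rapid delayed rectifier of the heart, was instead higher: -4.18, -4.26, -4.12 and -4.32 in NC, with 3 arrays above background, against -3.39, -3.06, -3.19 and -3.00 in siRNA cells, a difference of 1.06 ± 0.09 (adjusted p = 5.26e-05), which became -0.18 with normexp. Of the 4 measured members of this family, then, 3 were lower and 1 higher. The 3 lower ones passed the filter through the NC arrays alone, so their direction follows from how they were kept. Arrays of the groups did not overlap in any of the 4, as for 62.5% of all genes tested.

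Kcna1, a low-threshold delayed rectifier of axons, was above background on no NC array and on all 4 siRNA arrays. Its levels were -4.91, -4.79, -4.91 and -4.51 in NC and -2.90, -2.90, -2.96 and -2.99 in siRNA cells, at least 2.74-fold higher (adjusted p = 4.16e-06). With normexp its difference was -0.07 and it was not called (adjusted p = 0.886). Its neighbours on rat chromosome 4 differed from it, with Kcna5 on no array and Kcna6 on 1 or 2 arrays of a group at most.

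Kcng1, Kcng2 and Kcns2 encode subunits that form no channel alone and modify delayed rectifier channels. Kcns2 read -3.38, -3.84, -3.60 and -3.55 in NC and -4.55, -4.49, -4.62 and -6.23 in siRNA cells, where no array was above background, and was at least 1.77-fold lower (adjusted p = 0.0138). Kcns2 was not called after quantile normalization (adjusted p = 0.0715) or when spike-in RNA set the scale (adjusted p = 0.0565). Kcng1 and Kcng2 were higher by 1.07 ± 0.32 (adjusted p = 0.0203) and 0.47 ± 0.16 (adjusted p = 0.0343), but arrays of the groups overlapped for both, and with normexp the differences were -0.21 and -0.39. Kcng1 passed the filter through the siRNA arrays alone, so its direction follows from how it was kept. Its call was lost without NC replicate 1 or 2. The Kcng2 call was lost when any 1 of NC replicates 1, 3 and 4 or siRNA replicates 1 to 3 was left out. The Kcng2 probe shares 20 bases with a second probe of the gene that was above background on no array (chr18:77190610-77190669 and chr18:77190650-77190709).

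Kcnq5, a subunit of the M-current, was not called at 0.28 ± 0.17 (adjusted p = 0.180) and was called higher under each of the other 4 scalings.

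**Figure D3:**
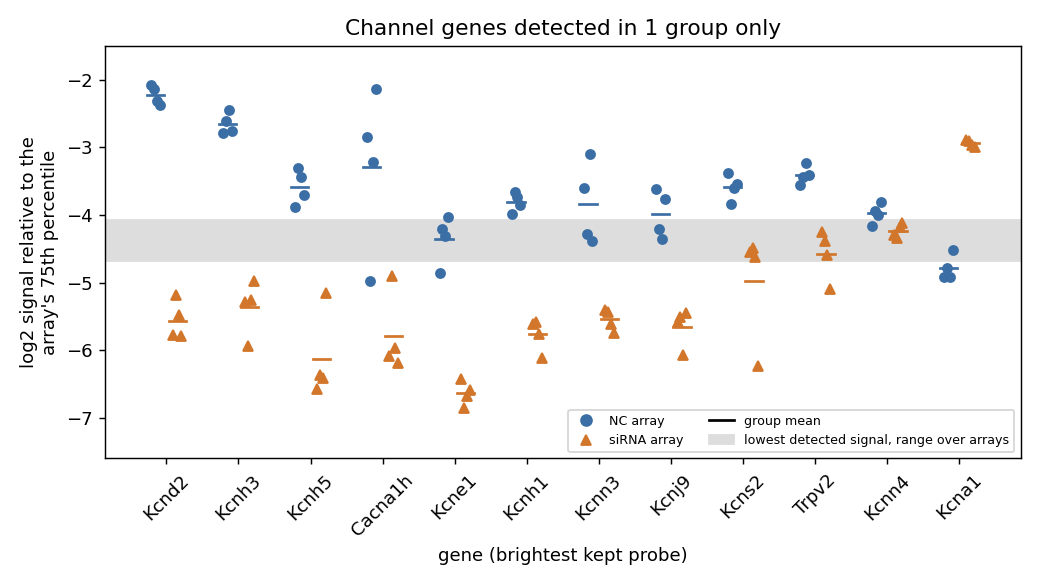
Log2 signal relative to the array's 75th percentile for 12 channel genes above background on 3 or 4 arrays of 1 group and on none of the other (points, single arrays; bars, group means; grey band, range over the arrays of the lowest signal among probes above background). The 11 genes from Kcnd2 to Kcnn4 are above background only in NC and Kcna1 only in siRNA cells. For Kcne1 and Kcnn4 the brighter group lies in or near the band. Some NC arrays of Kcnj9 (-4.21 and -4.36) and Kcnn3 (-4.28 and -4.38) lie in it too.

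In all, 11 channel genes were detected only in NC (20.8% of the 53, against 4.23% of all genes tested) and 2 detected only in siRNA cells (3.77%, against 0.984%). They passed the filter through 1 group alone, so their direction follows from how they were kept. The 4 genes detected on 3 or 4 NC arrays and 1 or 2 siRNA arrays also passed it through 1 group alone, as did the 4 with the groups reversed. The lowest bounds among the genes detected in 1 group only, 1.08-fold for Kcne1 and 1.19-fold for Kcnn4, lie close to the detection limit. In 103 channel probes above background on no array, the median difference was -0.06, against -0.09 for all 11529 such probes.

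Of 16 auxiliary subunits of potassium channels on the array, 3 were measured. Kcnmb4, a beta subunit that slows the large-conductance calcium-activated channel, read -0.13, -0.30, -0.33 and -0.34 in NC and 0.42, 0.48, 0.41 and 0.31 in siRNA cells, a difference of 0.68 ± 0.07 (adjusted p = 8.77e-05). Every siRNA array lay above every NC array, while Kcnma1, the pore subunit of that channel, was detected on 1 or 2 arrays of a group at most. Kcne1, which slows the cardiac channel formed by Kcnq1, read -4.85, -4.21, -4.31 and -4.03 in NC (3 arrays above background) and -6.43, -6.86, -6.68 and -6.59 in siRNA cells, at least 1.08-fold lower (adjusted p = 3.17e-05). Its neighbour Kcne2 on chromosome 11 and Kcnq1 itself were on no array. Kcnmb3 was not called (0.55 ± 0.55, adjusted p = 0.414), with 1 NC array at -3.03 and the other NC arrays between -5.43 and -5.13; without that array it was called higher (1.12, adjusted p = 0.0097).

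Inward rectifiers (Kcnj) pass potassium best near the resting potential and stabilise it. All 3 measured of 15 on the array fell, with a median difference of -1.53. Kcnj14 read -1.17, -0.92, -0.91 and -1.10 in NC and -2.54, -2.61, -2.48 and -2.58 in siRNA cells, above background on all 8 arrays, a difference of -1.53 ± 0.07 (adjusted p = 3.13e-06). This was among the differences kept under every scaling and background correction tried. Kcnj12, a strong inward rectifier, fell by 0.43 ± 0.09 (-0.81, -0.66, -0.67 and -0.59 against -1.25, -1.02, -1.24 and -0.95, adjusted p = 0.00334), but was not called with median scaling and stood at 0.10 with spike-in scaling. Kcnj9, a G protein-gated subunit, was above background on all NC and no siRNA arrays and at least 1.39-fold lower (means -3.99 and -5.65, adjusted p = 0.000261). It was kept through the NC arrays alone, so its direction follows from the filter.

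Tandem-pore-domain channels (Kcnk) carry background potassium current and respond to pH, stretch and lipids. Of 13 on the array 6 were measured, with 2 higher and 3 lower. Among the lower ones, Kcnk5 and Kcnk2 passed the filter through the NC arrays alone, so their direction follows from how they were kept. Kcnk5, an alkaline-sensitive channel of secretory epithelia, read -1.70, -1.20, -1.18 and -1.71 in NC and -3.71, -3.79, -6.79 and -6.72 in siRNA cells, a difference of -3.81 ± 0.77 (adjusted p = 0.00342). Its siRNA arrays fell into a pair above background and a pair not above it, and all lay below the NC arrays. Kcnk7, a member not known to conduct on its own, went from -1.92, -1.64, -1.74 and -2.00 to -3.62, -3.74, -3.82 and -4.02 with all 8 arrays above background, a difference of -1.97 ± 0.11 (adjusted p = 6.87e-06).

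Kcnk2, a stretch- and lipid-gated channel, fell by 1.23 ± 0.28 (adjusted p = 0.00630), with NC arrays at -3.87, -3.66, -3.56 and -4.12 and siRNA arrays at -5.23, -4.15, -5.39 and -5.35, only the second of them above background. Kcnk12 (0.61 ± 0.10, adjusted p = 0.00140) and the acid-sensitive Kcnk9 (0.52 ± 0.08, adjusted p = 0.000620) rose. Both were above background on all 8 arrays, and the lowest siRNA array, at -2.13 and -2.24, lay above the highest NC array, at -2.31 and -2.59. With normexp they stood at -0.04 and -0.10. Kcnk6 was not called, with a difference of -0.09 ± 0.12 (adjusted p = 0.563).

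Both measured of 7 calcium- or sodium-activated potassium channels were lower and were detected only in NC, on 3 arrays each. They passed the filter through the NC arrays alone, so their direction follows from how they were kept. Kcnn3, a small-conductance channel opened by intracellular calcium, was at least 1.54-fold lower (means -3.84 and -5.54, adjusted p = 0.00109). Kcnn4, the intermediate-conductance channel of epithelia and blood cells, was at least 1.19-fold lower (means -3.98 and -4.23, adjusted p = 0.0317). Its groups overlapped, and its difference was 0.05 with median, 0.23 with quantile, 0.12 with cyclic loess and 0.28 with spike-in scaling, the opposite sign. The call was also lost without NC replicate 2, 3 or 4 or siRNA replicate 1 or 2.

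**Figure D4:**
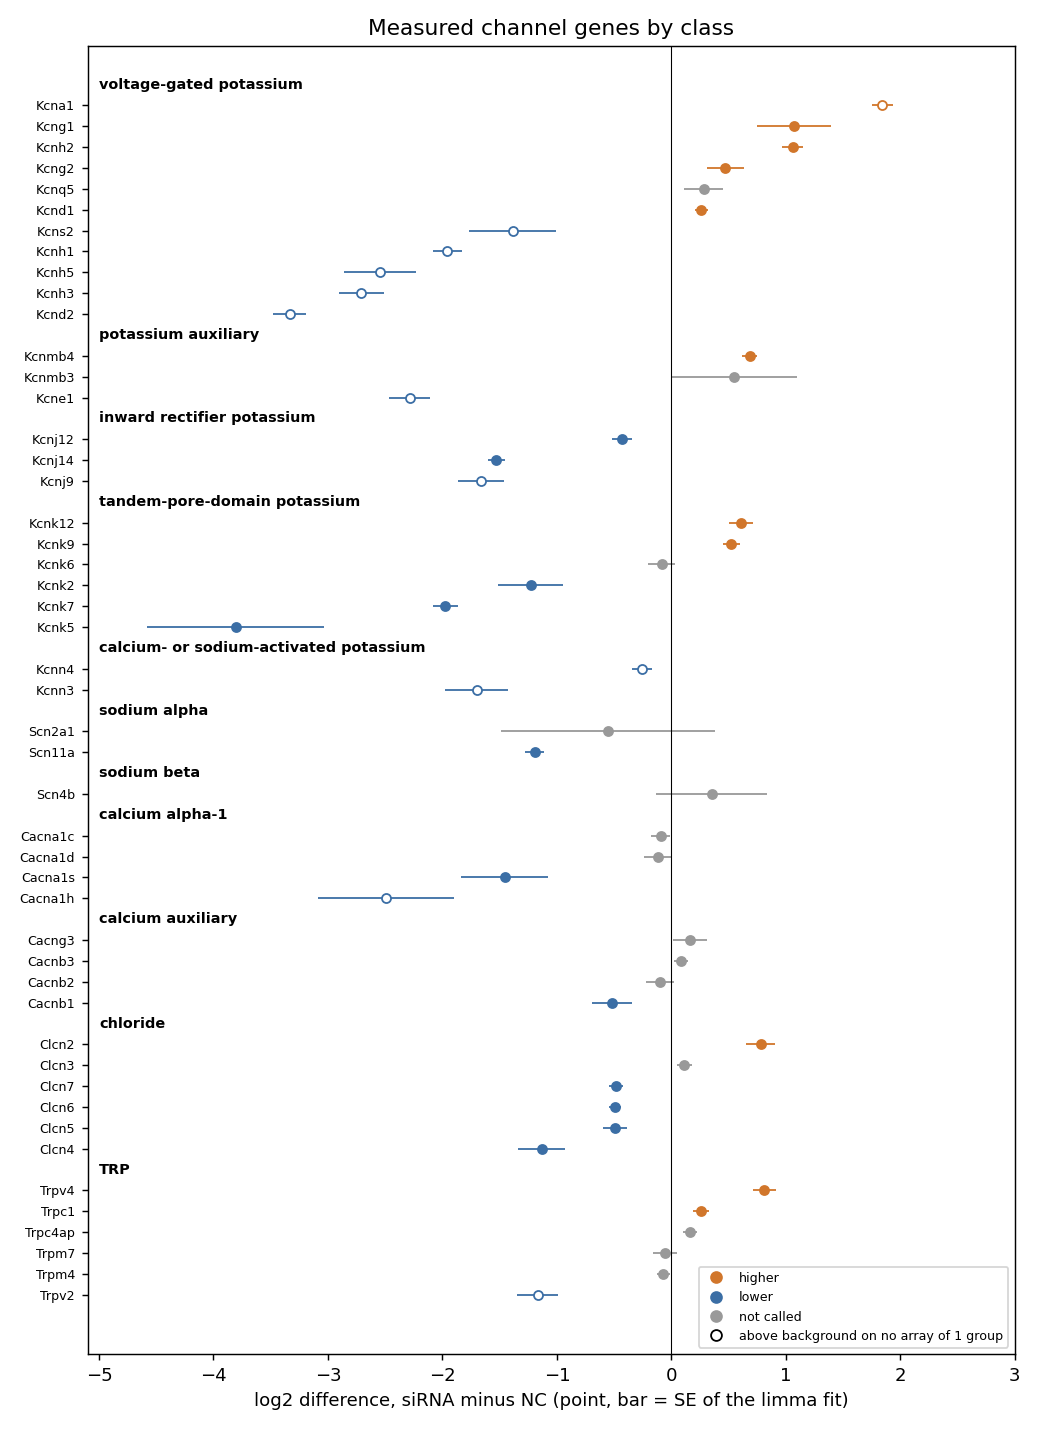
Log2 difference (siRNA minus NC) of 48 of the 53 measured channel genes by class, as points with the SE of the limma fit over 4 arrays per group; orange, called higher; blue, called lower; grey, not called; open points, above background on no array of 1 group. The inward rectifiers and calcium-activated potassium channels shown lie left of 0. Of these, Kcnj9, Kcnn3 and Kcnn4 were kept through the NC arrays alone, so their direction follows from how they were kept. With spike-in scaling Kcnn4 stood at 0.28 and Kcnj12 at 0.10. The distance of an open point from 0 depends on signals that were not above background, as does that of Kcnk5 on 2 of its siRNA arrays.

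Voltage-gated sodium channels consist of a pore-forming alpha subunit and beta subunits that alter gating and cell adhesion. Of 10 alpha subunits on the array 3 were measured. Scn11a, a channel of pain-sensing neurons, read 0.72, 0.90, 0.92 and 0.58 in NC and -0.39, -0.32, -0.47 and -0.48 in siRNA cells, a difference of -1.19 ± 0.09 (adjusted p = 2.21e-05). It was above background on all 8 arrays with no overlap between groups.

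Scn4b, a beta subunit, was not called (0.35 ± 0.48, adjusted p = 0.548), with overlapping groups and 2 NC and 3 siRNA arrays above background. Of 10 markers of heart and skeletal muscle 6 were measured, with Myh2 (-2.46 ± 0.32) and Tnnt2 (-0.28 ± 0.06) lower, none higher and a median difference of -0.24. Myh6 was on no array, and the list's summed level was 6.58 to 7.63 on NC and 6.54 to 7.90 on siRNA arrays; their part in the results on sodium channels was not tested.

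Scn2a1 and the calcium channel gene Cacna1d were measured by several probes that did not move alike, so the probes are shown. The first 30 of the 60 bases are given for each, numbered from the brightest tested probe. Those of Scn2a1 lie on the plus strand at chr3:47722600-47722659, chr3:47720286-47720345 and chr3:47649986-47650422, and those of Cacna1d on the minus strand at chr16:5420764-5421229, chr16:5383365-5383424, chr16:5465138-5465197 and chr16:5401122-5401181. The third Scn2a1 and the first Cacna1d interval are longer than a probe, so these probes span a gap in the genome.
Scn2a1 probe 1: aaaccagttagtgaaatgatatcgccaatt
Scn2a1 probe 2: atcaaagaagacatcatcacagataaactg
Scn2a1 probe 3: catttctacgggatccctggaattggttgg
Cacna1d probe 1: aatccatctgacagtgagaatatccctctc
Cacna1d probe 2: ttagtatttttactcgggctaaacagaact
Cacna1d probe 3: atgcccaccagtgagaccgaatctgtgaac
Cacna1d probe 4: ccaaagtcctgcatccctagtttgcccgga

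Scn2a1, a brain sodium channel, was not called with its brightest probe, which read -2.86, -3.57, -2.16 and -3.63 in NC and -3.10, -3.34, -6.39 and -1.59 in siRNA cells (-0.55 ± 0.93, adjusted p = 0.629). A single siRNA array, replicate 3, set the sign of that difference, which was 0.38 without it. The second probe was above background on all NC and no siRNA arrays and was called lower, with means of -3.24 and -5.60 and a fall of at least 2.33-fold (adjusted p = 5.73e-05). That probe passed the filter through the NC arrays alone, so its direction follows from how it was kept. The third was above background on no array.

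Cacna1d, an L-type calcium channel of endocrine and pacemaker cells, read -3.22, -3.14, -3.10 and -3.10 in NC and -3.06, -3.14, -3.19 and -3.63 in siRNA cells with its brightest probe, and was not called (-0.12 ± 0.12, adjusted p = 0.435). Its second probe was above background on all NC and no siRNA arrays and at least 1.60-fold lower (means -3.78 and -5.66, adjusted p = 0.000278), while probe 4, above background on 2 NC and 4 siRNA arrays, was higher by 0.61 ± 0.14 (adjusted p = 0.00648). The probes of this gene were thus called in opposite directions. Probe 2 passed the filter through the NC arrays alone and probe 4 through the siRNA arrays alone, so each direction follows from how the probe was kept. Of the 5 tested probes beyond the brightest ones, in 4 genes, 1 was called together with its gene's brightest probe, in the same direction.

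**Figure D5:**
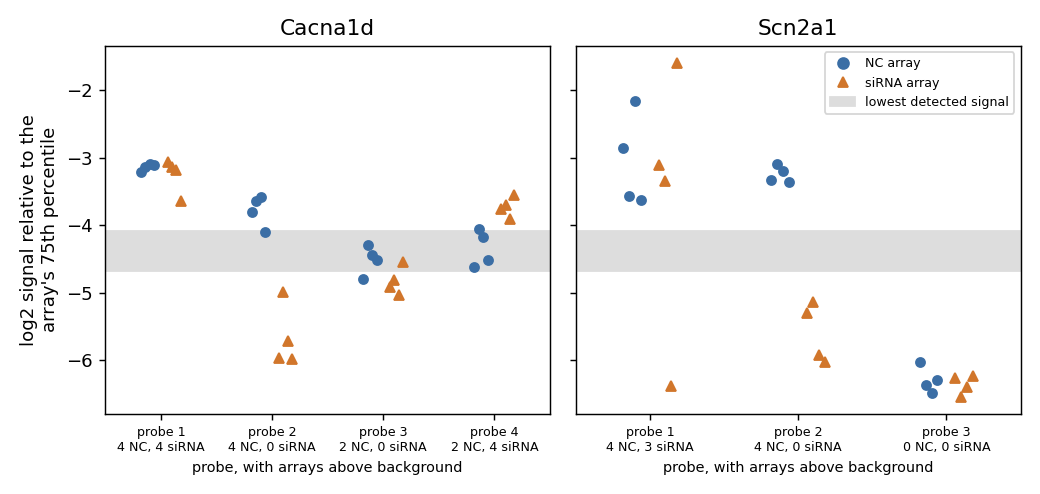
Log2 signal relative to the array's 75th percentile of every probe of Cacna1d and Scn2a1 (circles, NC arrays; triangles, siRNA arrays; grey band, range of the lowest signal among probes above background), with the number of arrays above background under each probe. Probe 2 of Cacna1d is lower and probe 4 higher in siRNA cells, and probe 1 of Scn2a1 has a single siRNA array at -6.39. Probe 2 of each gene was kept through the NC arrays alone and probe 4 of Cacna1d through the siRNA arrays alone. The directions of these probes follow from that.

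Of 26 calcium channel genes on the array 8 were measured, with none higher and 3 lower. The lower ones, Cacna1h, Cacna1s and Cacnb1, passed the filter through the NC arrays alone, so their direction follows from how they were kept. The calcium channel genes that met the filter in both groups were not called. Cacna1s, the L-type pore of skeletal muscle, read -2.93, -2.28, -2.63 and -1.93 in NC and -3.71, -4.42, -4.53 and -2.94 in siRNA cells, with 2 siRNA arrays above background, a difference of -1.46 ± 0.38 (adjusted p = 0.0107). The groups nearly met, at -2.93 and -2.94, and with spike-in scaling the adjusted p was 0.0503. Cacna1h, a low-voltage T-type channel, was above background on 3 NC arrays (-2.84, -3.22 and -2.13, with the remaining one at -4.97) and on no siRNA array (-6.08, -4.90, -5.96 and -6.19), and was at least 2.25-fold lower (adjusted p = 0.00728). The undetected NC array overlapped the siRNA arrays. Cacna1c, the L-type pore of heart and smooth muscle, was not called (-0.09 ± 0.08, adjusted p = 0.344).

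The cytoplasmic beta subunits carry calcium channels to the membrane. Cacnb3, above background on all 8 arrays at 4.14, 4.10, 4.04 and 4.13 in NC and 4.28, 4.17, 4.04 and 4.26 in siRNA cells, was not called (0.09 ± 0.06, adjusted p = 0.276). Cacnb2 (-0.10 ± 0.12, adjusted p = 0.509) and Cacng3, an auxiliary subunit of glutamate receptors (0.16 ± 0.15, adjusted p = 0.356), were not called either. Cacnb1 was called lower at -0.52 ± 0.18 (adjusted p = 0.0338) with overlapping groups and 1 siRNA array above background. That call was lost when any 1 of NC replicates 1 to 3 or siRNA replicates 2 to 4 was left out, and its difference was 0.05 with quantile and 0.01 with spike-in scaling.

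Chloride channels were the best detected class, with 7 of 9 genes measured. The proton-coupled exchangers of endosomes and lysosomes were mostly lower. Clcn4 read -2.31, -1.88, -2.66 and -2.82 in NC and -3.33, -3.50, -3.69 and -3.69 in siRNA cells, a difference of -1.13 ± 0.20 (adjusted p = 0.00174). Clcn5 (-0.49 ± 0.11, adjusted p = 0.00455), Clcn6 (-0.49 ± 0.05, adjusted p = 9.34e-05) and the lysosomal Clcn7 (-0.48 ± 0.06, adjusted p = 0.000401) were lower by nearly the same amount, each with every siRNA array below every NC array. With spike-in scaling these 3 stood at 0.04, 0.04 and 0.05, so their fall is relative to the 75th percentile. Clcn3 was not called (0.11 ± 0.06, adjusted p = 0.155).

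Clcn2, a volume- and voltage-sensitive channel of the plasma membrane of epithelia, was higher. It passed the filter through the siRNA arrays alone, so its direction follows from how it was kept. It read -4.30, -4.43, -4.16 and -4.18 in NC (2 arrays above background) and -3.67, -3.49, -3.65 and -3.14 in siRNA cells (all 4), a difference of 0.78 ± 0.13 (adjusted p = 0.00105) that became -0.28 with normexp.

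Of 21 TRP genes on the array 6 were measured, with 2 higher, 1 lower and a median difference of 0.05. Trpv4, opened by cell swelling and warmth, read -2.70, -2.60, -2.48 and -2.29 in NC and -1.54, -1.82, -1.73 and -1.73 in siRNA cells, a difference of 0.81 ± 0.10 (adjusted p = 0.000276) that became -0.07 with normexp. Trpv2, a related channel, read -3.55, -3.43, -3.24 and -3.41 in NC and -4.25, -4.38, -4.59 and -5.09 in siRNA cells, where it was above background on no array, at least 1.96-fold lower (adjusted p = 0.000759). The pair was thus called in opposite directions with no overlap between groups in either. Trpv2 passed the filter through the NC arrays alone, so its direction follows from how it was kept. Trpc1, a calcium-permeable channel linked to store depletion, rose by 0.26 ± 0.07 (adjusted p = 0.0147). With normexp Trpc1 stood at 0.07 and was not called. Trpm7, a channel fused to a kinase (-0.06 ± 0.10, adjusted p = 0.652), Trpm4, a calcium-activated monovalent cation channel (-0.07 ± 0.06, adjusted p = 0.299), and Trpc4ap (0.16 ± 0.06, adjusted p = 0.0522) were not called.

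Other genes of ion transport, from a list of 75 with 73 on the array, were better detected, with 49 measured, 22 higher, 13 lower and a median difference of 0.12. Of all 10669 genes tested, 36.1% were higher and 28.9% lower, shares that also stand beside the counts for parts of this list below. Of 9 measured genes of calcium release and store-operated entry, Itpr1 (1.06 ± 0.12, adjusted p = 0.000209) and Itpr3 (0.71 ± 0.08), release channels of the endoplasmic reticulum, and the store sensors Stim1 (0.59 ± 0.05) and Stim2 (0.26 ± 0.08) were higher, while Orai2, a pore of store-operated entry, was lower (-0.77 ± 0.09). Of 9 pump genes, Atp1b1, the beta subunit of the sodium pump, rose by 2.02 ± 0.08 (adjusted p = 1.04e-06), and Atp1b2 (-1.26 ± 0.09) and Atp2b1 (-0.22 ± 0.07) fell. Atp2a3, a calcium pump of the endoplasmic reticulum, was above background on no siRNA array and at least 2.03-fold lower (adjusted p = 0.000152). It passed the filter through the NC arrays alone, so its direction follows from how it was kept.

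Of 12 other chloride transport genes measured, 6 were higher and 5 lower. Ostm1, the beta subunit of Clcn7, rose by 0.49 ± 0.05 where Clcn7 was called lower, and the volume-regulated channel genes Lrrc8a (-0.51 ± 0.07), Lrrc8c (-0.52 ± 0.06) and Lrrc8d (-0.58 ± 0.14) were lower. Among 7 measured partners of channels, 5 were higher, among them the kinase Wnk1 (0.28 ± 0.05), and 1 was lower, the kinase Sgk1 (-1.14 ± 0.11).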

How the data were processed

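Per the labels, total RNA was labelled with Cy3 and hybridised to 1-colour arrays. Per the file headers, the deposited processed intensity comes from Feature Extraction 12.0.3.1 (12.0 in the submitters' processing notes) and is background-subtracted, with no scaling between arrays. The authors' deposited series table of log2 values holds 86 probes and no channel probe, and was not used for values.

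Control spots and outlier spots (129 to 174 per array) were left out; none was saturated. Levels are log2 processed intensities minus the array's 75th percentile; 24853 probes were kept, as described above. The groups were compared with limma 3.58.1 (lmFit and eBayes, two-sided) in R 4.3.3, with Benjamini-Hochberg adjustment over all kept probes. Some genes counted here are not reported by name.

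Where a gene was undetected on every array of a group, "at least" is a bound: on each such array the dim level was raised to the lowest signal counted as above background there, if that was higher than its own, and the means were then compared. The normexp offset was 50. A detection mark at the scanner's threshold and the number of arrays limit the precision. Symbols are those of the array files. The gene symbols of all 201 channel probes were found among the symbols or synonyms of the RefSeq gene table of assembly GRCr8.

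The members, gene lists, tests and alternatives were chosen with earlier results of these data known. Genes were named by class, up to 3 per direction by adjusted p and the brightest, with all genes detected in 1 group alone; the other measured channel genes and the genes of other ion transport were named after their values were seen.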

Additional observations from a re-analysis of the deposited data

Results flagged for a closer look

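In each group of 4 arrays, the highest or lowest array was set against the others by Dixon's ratio (its gap to the nearest array over the whole range, critical value 0.829). Of 108 groups tested 6 passed it, and chance gives about 1 in 20. The NC arrays of Kcnmb3 (ratio 0.875) held 1 array at -3.03 and the others from -5.43 to -5.13. In Trpm4 (0.845) the lowest NC array stood at -1.76 and the others from -1.65 to -1.63, and in Clcn6 (0.882) it stood at -1.07, with the highest at -0.99, gaps that are small beside the other differences. In siRNA cells, Kcnk2 (0.872) had 1 array at -4.15, the only one above background, and the others from -5.39 to -5.23. Kcnh5 (0.849) had 1 array at -5.16 and the others from -6.58 to -6.36, and Kcns2 (0.925) had 1 array at -6.23 and the others from -4.62 to -4.49, all of them not above background. The causes were not tested.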

How the results depend on the processing

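Leaving out each array in turn gave 12 to 14 channel genes higher and 22 to 24 lower, 3 to 5 higher and 16 to 18 lower at 2-fold, 13 to 15 probes higher and 25 to 27 lower, and a detection difference of -6.34 to -4.60 percentage points (-7.21 with the more lenient mark); 33 of the 39 calls held in all 8 such fits. Over all arrays, 15 probes were higher and 28 lower. With spike-in scaling 26 genes were higher and 16 lower, 10 higher and 10 lower at 2-fold, and 27 probes higher. Normexp correction gave 1 gene higher and 7 lower (11.2% and 7.01% of all genes), 0 and 5 at 2-fold (2.87% and 3.14%), and 1 probe higher and 7 lower by limma. Without spots dimmer than their local background, an alternative chosen after seeing the data, it gave 0 and 1 at 2-fold (185 and 252 of all 10667 genes). With no filter on dim probes, 7 of 158 channel genes were higher at 2-fold, and 563 of all 16181 genes. With only probes above background on all 8 arrays, fewer channel genes were tested, 29. Of these 9 were higher and 10 lower, with 0 and 5 at 2-fold (334 and 383 of all 9379 such genes). By probe, 9 were higher and 10 lower. Counting lower bounds, also added after seeing the data and not done over all genes, left 11 channel genes lower at 2-fold. The authors' table, which holds no channel probe, gave no value. The replicate numbers did not pair the samples (same-number correlations of -0.03 to 0.21), and a replicate block gave 14 genes higher and 25 lower and changed no call.

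Differences that changed sign were as follows, and the causes were not tested. With median scaling Cacnb2 stood at 0.21, Kcnn4 at 0.05, Kcnk6 at 0.22, Cacna1d at 0.19, Cacna1c at 0.21, Trpm4 at 0.23 and Trpm7 at 0.25. With quantile normalization Cacnb2 stood at 0.10, Kcnn4 at 0.23, Cacnb1 at 0.05, Cacna1d at 0.18, Cacna1c at 0.30, Cacnb3 at -0.01, Trpm4 at 0.06 and Trpm7 at 0.05. With cyclic loess Cacnb2 stood at 0.07, Kcnn4 at 0.12, Cacna1d at 0.16, Cacna1c at 0.27 and Cacnb3 at -0.03. With spike-in scaling Cacnb2 stood at 0.43, Kcnn4 at 0.28, Kcnj12 at 0.10, Kcnk6 at 0.45, Clcn5 at 0.04, Cacnb1 at 0.01, Clcn7 at 0.05, Cacna1d at 0.42, Cacna1c at 0.44, Trpm4 at 0.46, Trpm7 at 0.47 and Clcn6 at 0.04. With normexp correction Trpv4 stood at -0.07, Scn4b at -0.42, Kcnk6 at 0.10, Clcn2 at -0.28, Kcnk9 at -0.10, Kcnh2 at -0.18, Kcng1 at -0.21, Kcna1 at -0.07, Kcnmb3 at -0.48, Cacng3 at -0.40, Trpc4ap at -0.05, Kcnk12 at -0.04, Kcnq5 at -0.30 and Kcng2 at -0.39. Without spots dimmer than their local background, normexp left Kcnmb3 at -0.02. Leaving out 1 array gave -1.22 to 0.38 for Scn2a1 (highest without siRNA replicate 3), -0.14 to 0.01 for Trpm7 (highest without siRNA replicate 3) and -0.18 to 0.01 for Cacna1d (highest without siRNA replicate 4).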
